A study of Nicotiana benthamiana with 12 samples.

Results

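A group of 77 genes of Nicotiana benthamiana, out of 45796 listed, had lower transcript levels with abscisic acid (ABA) in wild-type (WT) seedlings and missed a set limit for a decrease in the line labelled pent1. Levels are in CPM, the count divided by the library's total and multiplied by 1000000, and L is log2 of a group's mean CPM plus 0.5. Members were the genes whose L was lower by at least 1 with ABA in WT and whose ABA minus mock difference of L was above -0.5 in pent1. Both ABA differences therefore chose the members and are given below as a description. Of the 487 genes that met the WT limit, these 77 were the ones that also met the pent1 limit.

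The samples were whole seedlings of the LAB strain, moved from plates to liquid medium 10 days after germination and kept there for 10 days. Fresh medium was then given with 10 µM ABA, or with 0.1% DMSO, the solvent, for mock, and seedlings were collected after 3 h. The 4 groups were pent1 ABA, pent1 mock, WT ABA and WT mock, with 3 libraries each, from biological replicates made independently per the design text. The sources used here do not name the gene altered in pent1, so the genotype could not be checked on it. Libraries held 19371555 to 19678708 counts in pent1 and 18199288 to 18758918 in WT. Counts of the genotypes were deposited in separate tables, so the genotype and other ways in which the sets may differ (culture, sequencing run, counting) cannot be told apart. Replicate 3 of pent1 ABA stood apart from its group, for the members and over genes at large, as given below. Several results that rest on it are given with and without it. In whole seedlings, fewer cells of a type and less RNA per cell cannot be told apart.

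ABA is the plant hormone of drought response and seed dormancy. It binds soluble receptors, which then block protein phosphatases that otherwise hold a family of protein kinases inactive, and these kinases act on transcription factors and ion channels. Alongside the genes it raises, ABA lowers transcripts of many genes of growth and photosynthesis in leaves and seedlings of model plants. No table used here pairs the gene IDs with names or products, so the members are given by ID and no function is assigned to them.

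Together the members were a small part of the transcriptome and had their lowest group mean in WT ABA. They took 0.140%, 0.123% and 0.0705% of counts in pent1 ABA replicates 1 to 3, 0.152%, 0.123% and 0.151% in pent1 mock, 0.0996%, 0.103% and 0.0895% in WT ABA and 0.233%, 0.210% and 0.202% in WT mock. Group means were 0.111% ± 0.0365, 0.142% ± 0.0165, 0.0973% ± 0.00685 and 0.215% ± 0.0158 in the same order (SD, n = 3). The pent1 groups overlapped, and pent1 mock lay below every WT mock library. The member of median level stood at 3.05 ± 0.608 CPM in pent1 ABA, 3.98 ± 0.291 CPM in pent1 mock, 1.90 ± 0.164 CPM in WT ABA and 4.99 ± 0.286 CPM in WT mock (SD, n = 3). Most members were of low to middle abundance: 24 averaged at least 10 CPM over the 12 libraries, 9 at least 50 CPM, and 16 less than 1 CPM. The same genes were chosen on these libraries, so the totals carry no test.

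**Figure D1:**
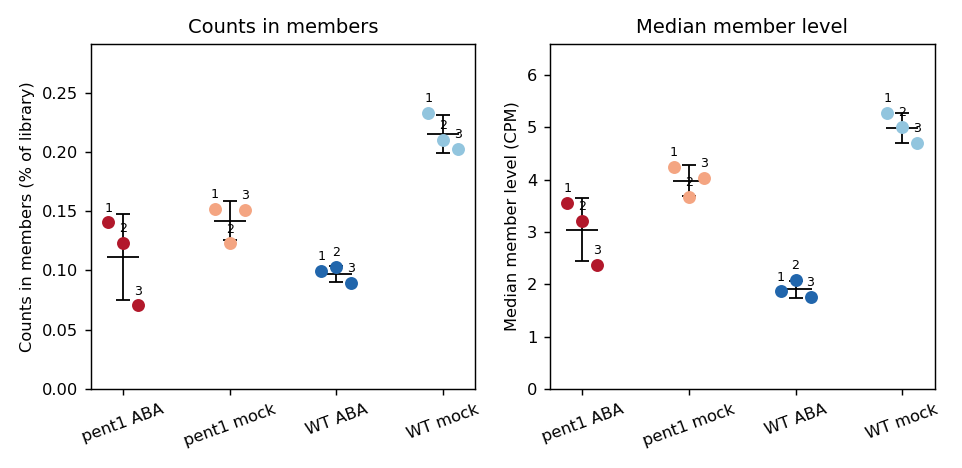
Share of each library's counts taken by the 77 members (left, %) and level of the median member (right, CPM), by group. Points are libraries with their replicate number, and bars are the mean ± SD of 3. Pent1 ABA replicate 3 sits at 0.0705% and below all 3 WT ABA libraries in summed share, while replicates 1 and 2 lie above them.

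The fall in WT was close to the limit for most members. Its log2 size ran from -1.65 to just past -1 with a median of -1.11, and 4 members reached -1.5 or lower. All 77 had every WT ABA library below every WT mock library, against a background of 24.7% of tested genes. The quasi-likelihood test of edgeR, Benjamini-Hochberg adjusted, called 74 of the 76 members tested lower in WT, against 17.5% of tested genes, where 36.0% were called in either direction. The 2 others were NbL05g06860 (adjusted p = 0.0751) and NbL10g07780 (adjusted p = 0.0966). Both counts repeat the choice of members and nothing is read from them.

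Values in pent1 were mostly small and negative, within the limit of the rule. The pent1 difference of L ran from -0.49 to 0.35 with a median of -0.33, against a median of -0.09 over tested genes. It was negative in 72 of 77 members, and in 45 it lay at or below -0.25. The 0.5 added in L damps falls at low levels. As a plain ratio of mean CPM, ABA over mock in pent1 ran from 0.249 to 1.60 with a median of 0.755. All 3 pent1 ABA libraries were below all 3 pent1 mock libraries for 12 members, against 19.0% of tested genes, and the groups overlapped for the other 65. None of the 64 members tested in pent1 was called lower by the quasi-likelihood test of edgeR, Benjamini-Hochberg adjusted, against 3.84% of tested genes, and none was called higher, against 7.24% (11.1% in either direction). At an unadjusted p under 0.05 there were 9 members, and DESeq2 called 0 after adjustment and had 4 at that unadjusted level. No share of tested genes at that unadjusted level is given here. The rule kept out larger decreases of L, so nothing is read from the absence of calls. Leaving out pent1 ABA replicate 1, pent1 ABA replicate 3 or pent1 mock replicate 1 gave 1 member called lower each, where 2.46%, 7.99% and 1.95% of tested genes were. The name of genes lowered in WT only stands for the limit of the rule.

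**Figure D2:**
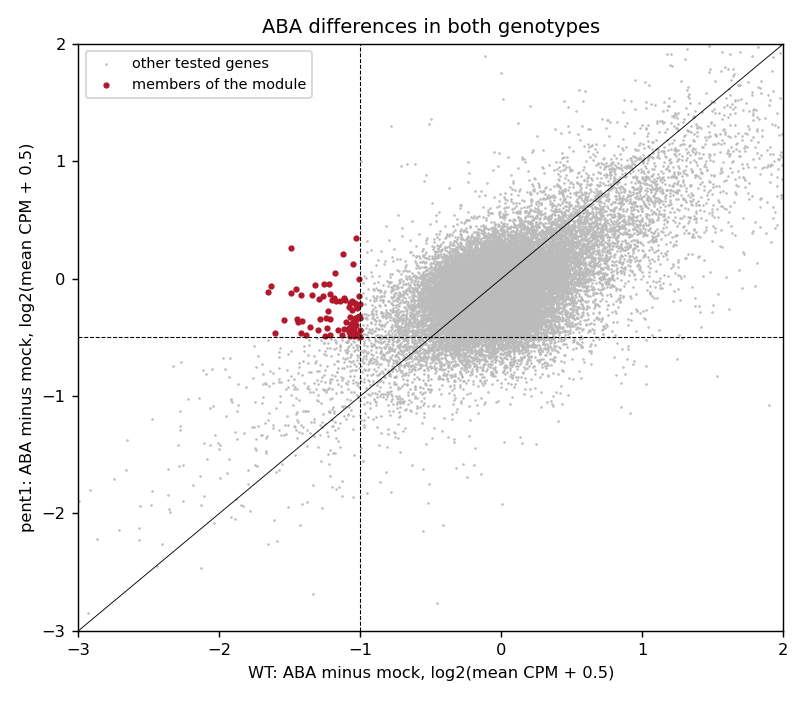
ABA minus mock difference of log2(mean CPM + 0.5) in pent1 (y axis) against WT (x axis). Red points are the 77 members and grey points the other tested genes, dashed lines mark -1 in WT and -0.5 in pent1, and the solid line marks equal differences. The members lie at the edge of a continuous cloud, and 388 tested genes fall outside the plotted range of -3 to 2.

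No gap separated members from other genes at either limit. Nearest inside both limits among genes of at least 1 CPM was NbL01g16300, with differences of -0.493 in pent1 and -1.001 in WT. The nearest gene outside the WT limit, NbL18g03580, had -0.336 in pent1 and -0.999 in WT. NbL18g12540 lay nearest outside the pent1 limit, with -0.505 in pent1 and -1.31 in WT.

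Replicate 3 of pent1 ABA stood apart from replicates 1 and 2 for the members. It was the lowest of the 6 pent1 libraries for 49 of 77 members, and for 24.5% of all tested genes. The median member deviated from its group mean by 0.16, 0.09 and -0.26 on the log2 scale in pent1 ABA replicates 1, 2 and 3, whereas the median over tested genes deviated by -0.00, 0.03 and -0.03. A median near 0 does not show how far single genes departed. Over all genes compared, chi-square over degrees of freedom was 16.5 and 11.4 for replicate 3 with replicates 1 and 2. Between replicates 1 and 2 it was 6.64. Replicate 3 thus differed over genes at large and not only over the members. Replicate 3 lay below every WT ABA library for 33 members and above every one for 31. For replicate 1 these numbers were 9 and 50, and for replicate 2 they were 14 and 47. The rule favours genes low in WT ABA, which raises the number lying above it. Shares of tested genes were not taken for these counts, so they only set the replicates side by side. Without replicate 3 the median pent1 difference of the members was -0.19 and 17 members, in place of 5, had a difference above 0. Without replicate 1 it was -0.41, and 22 of the 77 would no longer have met the pent1 limit. Replicate 2 of pent1 mock was also low for the members, which makes the pent1 difference smaller. It was the lowest of its group for 43 members, and for 39.0% of tested genes. Its median deviation was -0.16 over members and -0.03 over tested genes. Without pent1 mock replicates 1, 2 or 3 the median pent1 difference of the members was -0.25, -0.38 and -0.28.

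The abundant members varied most between replicates in pent1 ABA. Among the 24 members with at least 10 CPM, the median coefficient of variation was 40.2% in pent1 ABA, 17.3% in pent1 mock, 12.3% in WT ABA and 8.91% in WT mock. Over all tested genes of that abundance the medians were 10.6%, 9.29%, 6.199% and 5.71% in the same order. Of these members, 14 had a coefficient above 30% in pent1 ABA, and replicate 3 was the lowest of the 6 pent1 libraries in 22.

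To see the same measure in libraries that did not choose the genes, the rule was applied to 2 replicates of each group and the differences were taken from the replicate left out. The rule chose 95, 107 and 113 genes when replicates 1, 2 and 3 were left out, of which 45, 47 and 49 were members. In the left-out replicate the median difference in pent1 was -0.54, -0.30 and -0.71, and in WT it was -1.02, -0.75 and -1.05. The pent1 medians thus lay lower than in the choosing libraries (-0.30 and -0.24) when replicates 1 and 3 were left out, and alike for replicate 2 (-0.31). On average over the 3 choices the median was -0.52 ± 0.21 in pent1 and -0.94 ± 0.17 in WT (SD over the 3 choices). The choices share libraries and genes, so this SD is not a spread between independent replicates. In the left-out replicate, 15 of 95, 25 of 107 and 15 of 113 genes met the rule again. The WT difference was the lower one of both genotypes for 84, 87 and 69 of the genes chosen, and for 37.7%, 45.3% and 48.7% of tested genes. Differences below 0 in pent1 were found for 88.4%, 72.9% and 92.04% of the genes chosen and 65.3%, 53.9% and 57.5% of tested genes, whose medians were -0.16, -0.03 and -0.06. In WT they were found for 98.9%, 98.1% and 97.3% of the genes chosen and 51.8%, 50.6% and 57.2% of tested genes, whose medians were -0.01, -0.01 and -0.06. These shares carry no test.

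**Figure D3:**
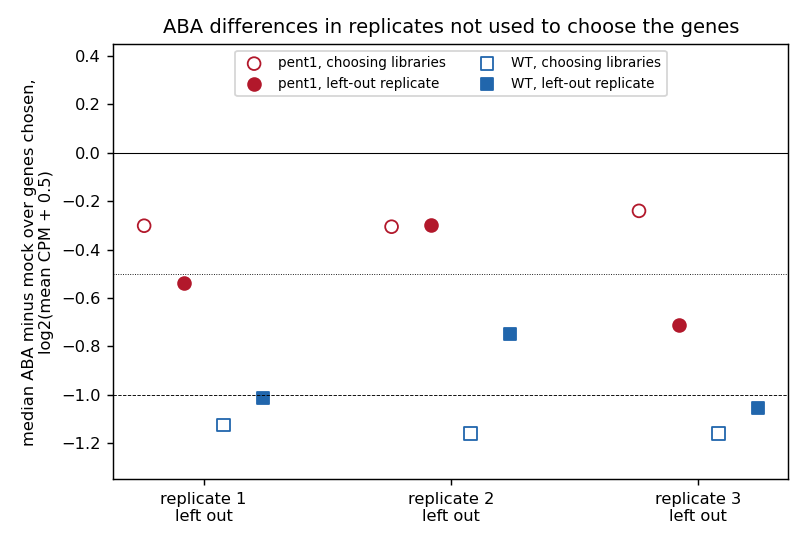
Median ABA minus mock difference, log2(mean CPM + 0.5), of genes chosen without 1 replicate of each group. Open symbols are the choosing libraries and filled symbols the left-out replicate, with circles for pent1 and squares for WT, and the dotted and dashed lines mark -0.5 and -1. The filled circles lie at -0.54, -0.30 and -0.71, above the filled squares in each of the 3 choices.

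The 6 most abundant members shared the fall in WT and differed in how steady they were in pent1. NbL10g21030 stood at 235, 145 and 85.1 CPM in the pent1 ABA libraries, 207, 169 and 276 CPM in pent1 mock, 157, 167 and 159 CPM in WT ABA and 384, 290.2 and 299 CPM in WT mock. WT ABA libraries were close together and below WT mock, whereas pent1 ABA ran from below the WT ABA libraries to above them without reaching WT mock. NbL13g20240 stood at 99.5, 94.9 and 64.2 CPM in the pent1 ABA libraries, 136, 113 and 96.7 CPM in pent1 mock, 65.9, 75.9 and 59.997 CPM in WT ABA and 156, 171 and 150.3 CPM in WT mock. Here pent1 mock lay between the WT groups, and pent1 ABA replicate 3 fell within the WT ABA range. NbL01g01900 stood at 113, 84.1 and 40.2 CPM in the pent1 ABA libraries, 116, 89.2 and 97.4 CPM in pent1 mock, 50.5, 63.5 and 59.4 CPM in WT ABA and 142, 154 and 128 CPM in WT mock. Replicate 3 of pent1 ABA was the lowest of all 12 libraries. NbL10g05810 had 102 ± 41.1 CPM in pent1 ABA, 118 ± 28.5 CPM in pent1 mock, 85.6 ± 5.65 CPM in WT ABA and 181 ± 18.6 CPM in WT mock (SD, n = 3). NbL06g06340 had 105 ± 25.4 CPM in pent1 ABA, 138 ± 37.4 CPM in pent1 mock, 73.6 ± 5.07 CPM in WT ABA and 154 ± 19.1 CPM in WT mock (SD, n = 3). NbL18g00220, the only one of the 6 with a WT ABA SD above 20 CPM, had 85.8 ± 35.7 CPM in pent1 ABA, 116 ± 15.7 CPM in pent1 mock, 83.4 ± 20.998 CPM in WT ABA and 174 ± 9.29 CPM in WT mock (SD, n = 3). The genotype difference averaged over both treatments was not past the threshold for any of these 6, with log2 values of -0.32 to 0.16 and adjusted p-values of 0.278 to 0.919 (edgeR quasi-likelihood, Benjamini-Hochberg).

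In some abundant members the mean in pent1 rested on replicates that lay far apart. NbL10g07780 stood at 54.8, 35.8 and 9.44 CPM in the pent1 ABA libraries, 38.04, 45.1 and 17.1 CPM in pent1 mock, 38.8, 68.6 and 30.9 CPM in WT ABA and 101, 103 and 76.04 CPM in WT mock. Its pent1 means were 33.4 CPM with ABA and 33.4 CPM with mock, while single pent1 libraries lay from below the WT ABA range to within it. NbL01g04570 stood at 14.5, 13.998 and 2.17 CPM in the pent1 ABA libraries, 12.4, 7.28 and 14.9 CPM in pent1 mock, 13.05, 12.3 and 8.12 CPM in WT ABA and 27.7, 26.4 and 23.8 CPM in WT mock. Replicates 1 and 2 of pent1 ABA lay above each WT ABA library, and replicate 3 lay below them. NbL16g11770 stood at 45.3, 69.6 and 21.1 CPM in the pent1 ABA libraries, 57.5, 43.8 and 63.7 CPM in pent1 mock, 42.97, 42.01 and 26.8 CPM in WT ABA and 92.3, 84.5 and 86.99 CPM in WT mock. Here too replicates 1 and 2 of pent1 ABA lay above the WT ABA libraries and replicate 3 below them. NbL01g04570 and NbL16g11770, like the genes marked as added below, were picked after their values were seen, here for the low value of replicate 3.

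The 4 steepest falls in WT among members with a mean of at least 1 CPM were in NbL09g07210, NbL01g24660, NbL11g17510 and NbL05g06860. NbL04g02160, at 0.586 CPM, had a WT difference of -1.54. NbL09g07210 stood at 4.93, 3.05 and 2.27 CPM in the pent1 ABA libraries, 3.78, 3.67 and 3.78 CPM in pent1 mock, 2.03, 1.71 and 1.87 CPM in WT ABA and 7.75, 6.51 and 6.57 CPM in WT mock. The WT groups were far apart, and pent1 mock lay between them in each library. The ABA difference of L was -0.11 in pent1 and -1.65 in WT. NbL11g17510 stood at 3.56, 2.90 and 2.58 CPM in the pent1 ABA libraries, 5.77, 3.20 and 4.09 CPM in pent1 mock, 1.59, 2.08 and 1.48 CPM in WT ABA and 5.17, 6.46 and 7.16 CPM in WT mock. Both pent1 groups lay between the WT groups except for pent1 mock replicate 1, which reached the WT mock range. NbL01g24660 stood at 3.71, 2.19 and 0.103 CPM in the pent1 ABA libraries, 1.63, 0.774 and 3.94 CPM in pent1 mock, 3.18, 3.57 and 2.91 CPM in WT ABA and 14.4, 10.4 and 8.34 CPM in WT mock. Pent1 libraries of this gene were all lower than WT mock and varied widely under both treatments. NbL05g06860 had 3.11 ± 2.49 CPM in pent1 ABA, 2.51 ± 0.580 CPM in pent1 mock, 2.74 ± 0.341 CPM in WT ABA and 8.62 ± 4.92 CPM in WT mock (SD, n = 3), with 1 WT mock library at 14.3 CPM and the others at 6.24 and 5.34 CPM.

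Among members with a mean of at least 1 CPM, the highest pent1 differences were 0.35 for NbL04g20000, 0.26 for NbL05g06860, -0.00 for NbL10g07780 and -0.04 for NbL11g22430. The 3 other members above 0 averaged under 1 CPM. NbL04g20000 stood at 1.73, 1.63 and 1.29 CPM in the pent1 ABA libraries, 1.84, 0.774 and 0.716 CPM in pent1 mock, 0.274, 0.693 and 0.549 CPM in WT ABA and 2.03, 1.35 and 1.28 CPM in WT mock. The pent1 groups overlapped, and each pent1 library lay above each WT ABA library. NbL11g22430 stood at 12.5, 7.79 and 5.73 CPM in the pent1 ABA libraries, 10.3, 9.29 and 7.26 CPM in pent1 mock, 7.84, 6.50 and 7.41 CPM in WT ABA and 19.1, 18.7 and 16.3 CPM in WT mock. Pent1 libraries were all below WT mock, and 1 of the 3 pent1 ABA libraries lay below the WT ABA range.

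**Figure D4:**
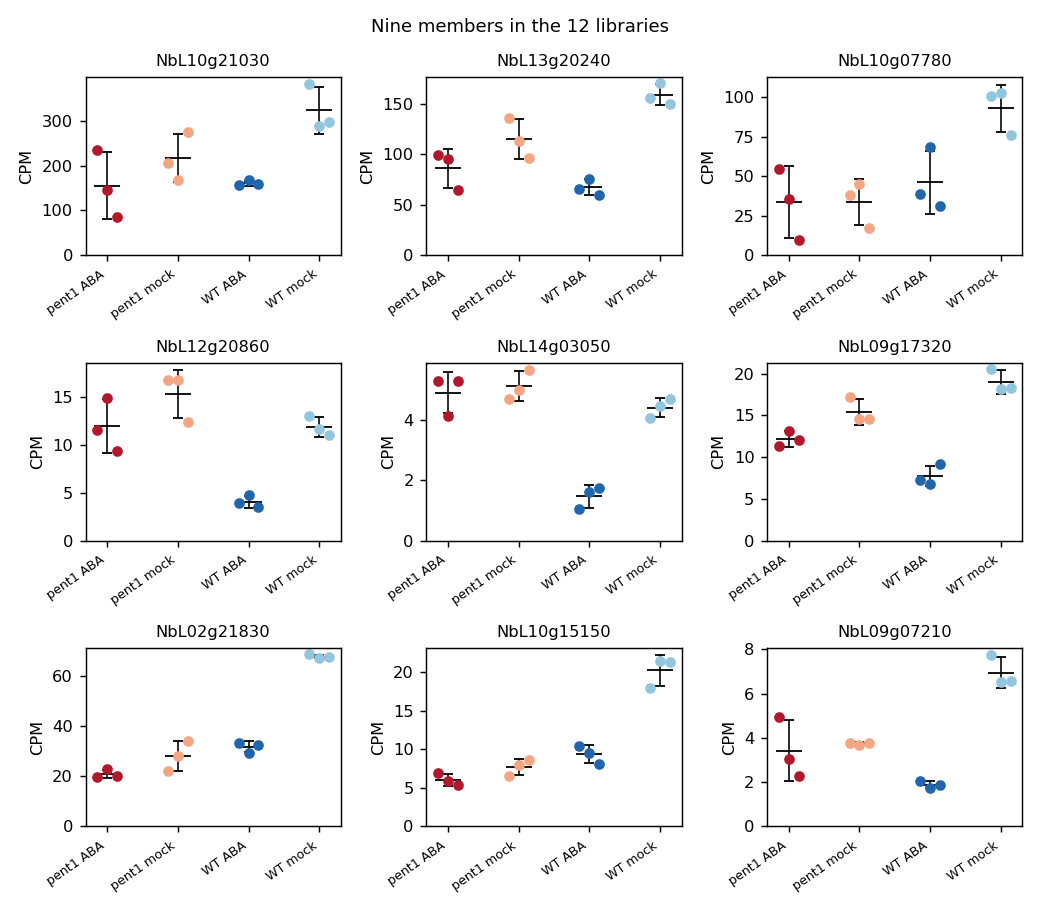
CPM of 9 members in the 12 libraries, with groups along the x axis in the order pent1 ABA, pent1 mock, WT ABA, WT mock. Points are libraries in the order of replicates 1 to 3 and bars are mean ± SD of 3, on axes that start at 0. In NbL12g20860 and NbL14g03050 only WT ABA is low, while in NbL02g21830 and NbL10g15150 only WT mock is high.

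The members differed in where pent1 stood without ABA. On a scale that sets the WT ABA level of L to 0 and the WT mock level to 1, the pent1 mock level had a median of 0.45 with quartiles of 0.0987 and 0.80. It was at or below 0.25, near WT ABA, for 26 members, at least 0.75, near WT mock, for 23, and between these for 28. All pent1 mock libraries lay below all WT mock libraries for 49 members, against 18.9% of tested genes, and above them for 3, against 26.5%. Pent1 ABA lay above WT ABA without overlap for 25, against 20.5%, and below it for 8, against 21.8%. The edgeR quasi-likelihood test, Benjamini-Hochberg adjusted, called 37 members lower and 0 higher in pent1 under mock (backgrounds 15.4% and 17.4%, or 32.8% in either direction). In that test 49 of 76 had an unadjusted p under 0.05, a level for which no share of tested genes is given here. DESeq2 also called 0 higher after adjustment, against 15.7% of tested genes. Under ABA the edgeR test called 27 higher and 6 lower (backgrounds 16.7% and 14.6%, or 31.3% in either direction). The choice favours genes high in WT mock and low in WT ABA, which enter these counts, so nothing is read from them. In left-out replicates the median pent1 minus WT difference of L was -0.21, -0.37 and -0.28 under mock and 0.15, 0.13 and -0.08 under ABA. Values of tested genes in those replicates are not given here. Over all 12 libraries, the median of tested genes was 0.06 under mock and 0.002 under ABA. For the 410 other genes that met the WT limit it was -0.17 and 0.22. A low level in pent1 favours the choice and can carry over to the left-out replicate, so nothing is read from these medians.

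**Figure D5:**
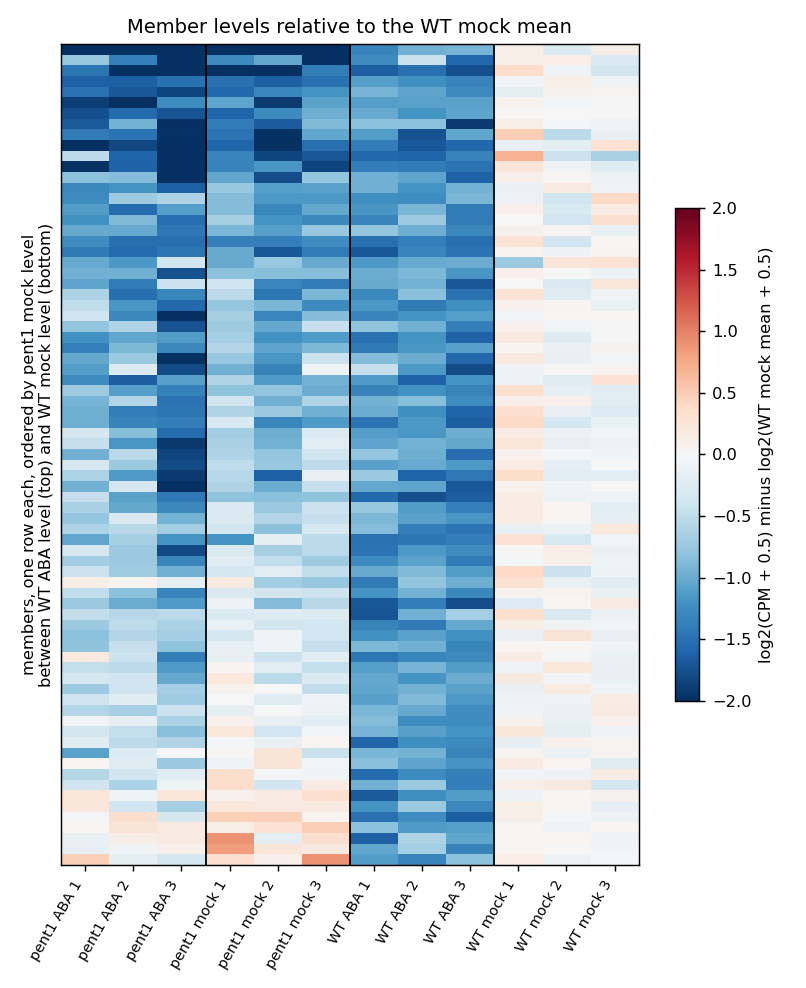
Level of each of the 77 members (rows) in the 12 libraries (columns), as log2(CPM + 0.5) minus log2(WT mock mean + 0.5), with blue below and red above the WT mock mean and colours capped at -2 and 2. Rows run from members whose pent1 mock level was at or below WT ABA (top) to those at or above WT mock (bottom). All pent1 columns are blue at the top, and at the bottom the WT ABA columns are the darkest blue while pent1 columns are pale blue to red.

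Of the genotype comparisons, the difference averaged over both treatments is the least tied to the choice. Equal shifts of mock and ABA cancel in both differences that chose the members, where levels stand well above the constant added in L. At low levels that constant damps falls of L, and a gene nearly absent from pent1 could not fall as far as the pent1 limit. A low level in pent1, which the averaged difference measures, thus helped to admit members. Beyond this, the averaged difference is independent of the choice only where mock and ABA vary alike, and the members varied more with ABA. By the quasi-likelihood test of edgeR with Benjamini-Hochberg adjustment, 11 of the 76 members tested were higher in pent1 and 19 were lower, against 23.6% and 19.8% of tested genes. In either direction, 39.5% of members and 43.4% of tested genes were called. The median log2 difference was -0.21 over members and 0.02 over tested genes. Leaving out genes under 1 CPM gave 12 of 61 members lower, 19.7%, beside 20.2% of tested genes, and a median of -0.06. The count of 19 and the median of -0.21 thus rest in part on members of low level. They are not read as independent of the choice. Without pent1 ABA replicate 3 the numbers were 15 higher and 17 lower of 77 members, beside 24.1% and 20.99% of tested genes. The 46 other members tested were called in neither direction.

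For the 11 members that were higher in pent1, averaged log2 differences were 0.41 to 1.00, and the lowest pent1 mock position was 0.922. With both ABA differences bounded by the rule, the sign of the averaged difference largely sets this position, here and for the members that were lower. The 4 lowest adjusted p-values, a selection added after the values were seen, belonged to NbL12g20860, NbL06g13170, NbL14g03050 and NbL13g21980. In this order, their pent1 minus WT log2 differences were 0.32, 0.28, 0.17 and 0.04 under mock and 1.60, 1.32, 1.77 and 1.10 under ABA. None of the 4 passed the threshold under mock in the edgeR test. Their averaged differences thus came mostly from ABA, where the rule favours low WT levels. They are not read as independent of the choice. NbL12g20860 stood at 11.6, 14.97 and 9.39 CPM in the pent1 ABA libraries, 16.8, 16.8 and 12.4 CPM in pent1 mock, 3.89, 4.74 and 3.46 CPM in WT ABA and 13.02, 11.7 and 11.01 CPM in WT mock. Pent1 ABA overlapped WT mock, and WT ABA lay below all other libraries. Its averaged difference was 0.96 (SE 0.11, adjusted p = 1.84e-06) by the quasi-likelihood test of edgeR with Benjamini-Hochberg adjustment. NbL14g03050 stood at 5.28, 4.12 and 5.31 CPM in the pent1 ABA libraries, 4.70, 5.01 and 5.67 CPM in pent1 mock, 1.04, 1.60 and 1.76 CPM in WT ABA and 4.07, 4.47 and 4.70 CPM in WT mock. The pent1 libraries overlapped WT mock and lay above WT ABA, with an averaged difference of 0.97 (SE 0.13, adjusted p = 1.41e-05) by the same edgeR quasi-likelihood test with Benjamini-Hochberg adjustment. NbL06g13170 had 7.26 ± 0.600 CPM in pent1 ABA, 8.08 ± 1.11 CPM in pent1 mock, 2.95 ± 0.434 CPM in WT ABA and 6.45 ± 0.283 CPM in WT mock (SD, n = 3), an averaged difference of 0.80. NbL13g21980 had 8.71 ± 1.09 CPM in pent1 ABA, 12.3 ± 2.16 CPM in pent1 mock, 4.13 ± 0.431 CPM in WT ABA and 11.6 ± 1.11 CPM in WT mock (SD, n = 3), an averaged difference of 0.57. NbL01g16300, the member nearest the limits, was also among the 11, at 0.84.

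Of the 19 members that were lower in pent1, NbL09g01970 had too few counts for a fold change, and the others had averaged log2 differences of -3.52 to -0.39. Of the 19, 17 had a pent1 mock position at or below 0.25, and 7 averaged under 1 CPM. NbL09g18850 was the member of at least 1 CPM in which all 6 pent1 libraries lay apart from all 6 WT libraries, an arrangement no other such member past the threshold showed. The share of tested genes so separated was not taken. The pent1 means of this gene, 0.206 CPM in mock and 0.119 CPM with ABA, were under the 0.5 added for L. No fall from that mock level could reach the pent1 limit, so its place in the group does not show a missing fall. NbL09g18850 stood at 0.305, 0.0509 and 0 CPM in the pent1 ABA libraries, 0.153, 0.361 and 0.102 CPM in pent1 mock, 0.877, 1.28 and 1.32 CPM in WT ABA and 3.24, 2.37 and 3.26 CPM in WT mock. It had 19 counts in the pent1 libraries together and 228 in the WT libraries, and its averaged difference was -3.52 (SE 0.35, adjusted p = 2.82e-07) by the quasi-likelihood test of edgeR with Benjamini-Hochberg adjustment. Added after the values were seen, for adjusted p-values among the 4 lowest of these 19, were NbL10g15150, NbL02g21830 and NbL09g01970. NbL10g15150 stood at 6.86, 5.85 and 5.31 CPM in the pent1 ABA libraries, 6.48, 7.90 and 8.59 CPM in pent1 mock, 10.4, 9.54 and 8.07 CPM in WT ABA and 17.9, 21.5 and 21.3 CPM in WT mock. WT mock stood above all other libraries, and pent1 mock overlapped WT ABA. Its averaged difference was -1.03 (SE 0.10, adjusted p = 2.31e-07) by the same edgeR quasi-likelihood test with Benjamini-Hochberg adjustment. NbL02g21830 stood at 19.8, 22.7 and 20.1 CPM in the pent1 ABA libraries, 22.01, 28.03 and 34.1 CPM in pent1 mock, 33.4, 29.4 and 32.6 CPM in WT ABA and 68.7, 67.4 and 67.5 CPM in WT mock. WT mock again stood apart, and pent1 ABA lay below WT ABA. The averaged difference was -0.95 (SE 0.10, adjusted p = 4.38e-07) by that edgeR quasi-likelihood test, Benjamini-Hochberg adjusted. NbL09g01970 was nearly without counts in pent1, with 3 over the pent1 libraries against 67 over the WT libraries (edgeR quasi-likelihood, Benjamini-Hochberg adjusted p = 4.50e-05). NbL01g24660 had an averaged difference of -1.54 with an adjusted p of 0.035, and NbL11g22430 one of -0.39 with an adjusted p of 0.04997 (edgeR quasi-likelihood, Benjamini-Hochberg). These calls were lost without 1 library in 8 and 10 of the 12 choices.

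At the middle of the range, NbL01g11360 and NbL11g10360 had averaged differences nearest 0, at 0.00 (SE 0.15) and -0.01 (SE 0.21). NbL01g11360 had 1.36 ± 0.349 CPM in pent1 ABA, 1.85 ± 0.215 CPM in pent1 mock, 0.995 ± 0.121 CPM in WT ABA and 2.49 ± 0.886 CPM in WT mock (SD, n = 3). NbL11g10360 had 2.25 ± 0.541 CPM in pent1 ABA, 3.05 ± 1.15 CPM in pent1 mock, 1.45 ± 0.0837 CPM in WT ABA and 4.78 ± 1.18 CPM in WT mock (SD, n = 3). In both, pent1 ABA lay above WT ABA and pent1 mock below WT mock in the mean, an arrangement that the rule fixes for any member with an averaged difference near 0.

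The direct test of the difference between the ABA responses was positive for 21 of the 76 members tested by the quasi-likelihood test of edgeR with Benjamini-Hochberg adjustment, against 1.20% of tested genes. For members, positive means a weaker fall in pent1 than in WT, or no fall. The test was negative for 0, against 2.17% (3.37% in either direction). An unadjusted p under 0.05 was found for 58 members, with no share of tested genes at that level given here. DESeq2 called 18 positive and 0 negative, against 1.90% and 3.70% of tested genes. The rule used both parts of this difference, so nothing is read from the count. Called members had log2 differences of 0.68 to 2.87. Of the 14 members of at least 10 CPM with a coefficient of variation above 30% in pent1 ABA, 1 was called, and of the 10 others 7 were. The spread between replicates enters the test itself and tested genes were not split in this way, so nothing is read from the split. Leaving out pent1 ABA replicate 3 gave 41 members and 7.19% of tested genes, and leaving out replicate 2 of that group gave 11 members and 0.402% of tested genes, so both moved the same way. The members' count was 12 without replicate 3 of pent1 mock, beside 0.451% of tested genes. With WT ABA replicates 1, 2 or 3 left out it was 10, 13 and 10, beside 0.206%, 0.366% and 0.361% of tested genes. With those of WT mock left out it was 12, 10 and 11, beside 0.369%, 0.302% and 0.387%. NbL09g17320 was added for the lowest adjusted p. NbL09g17320 stood at 11.3, 13.2 and 12.02 CPM in the pent1 ABA libraries, 17.3, 14.6 and 14.5 CPM in pent1 mock, 7.24, 6.82 and 9.11 CPM in WT ABA and 20.6, 18.1 and 18.2 CPM in WT mock. Both pent1 groups lay between the WT groups without touching them.

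Set beside the other 410 genes that met the WT limit but not the pent1 limit, the members had a smaller fall in WT, with a median of -1.11 in members and -1.33 in the others, and by construction in pent1, with -0.33 and -1.004. Of the 410, 108 (26.3%) were higher and 84 (20.5%) lower in pent1 averaged over treatments by the quasi-likelihood test of edgeR with Benjamini-Hochberg adjustment. Of 76 members, 11 (14.5%) and 19 (25%) were, and of tested genes 23.6% and 19.8%. The median averaged difference of the 410 was 0.03, against -0.21 for the members. The difference between both lists was not tested. A low level in pent1 favours a place among the members, so nothing is read from this contrast.

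Low counts limit part of the group. The member with the fewest had 49 counts over the 12 libraries, and 6 members had at least 1 library without a count. The filter on low counts left out 1 member in the 12-library fit and 13 in the pent1 fit, of which the most abundant averaged 1.11 CPM. N. benthamiana is an allotetraploid with many near-identical gene pairs, and the sources used here do not say how reads that fit more than 1 place were counted, so members with a close copy are uncertain.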

How the data were processed

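RNA of whole seedlings was sequenced in 12 libraries made with a strand-specific mRNA kit, per the labels' protocols. The authors deposited raw gene counts, 1 table per genotype, which were joined by gene ID. FastQC, cutadapt, STAR and DESeq2 were used, per the submitters' processing notes. The sources used here give no versions, counter, genome build or annotation. Total counts were 18199288 to 19678708 per library. No replicate pair looked like a repeat deposit of 1 library (chi-square over degrees of freedom 2.03 to 16.5).

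Genes were tested with edgeR 4.0.16 in R 4.3.3 (quasi-likelihood, robust), TMM, filterByExpr with a count minimum of 10, and Benjamini-Hochberg adjustment over all genes tested at 0.05. Each genotype's ABA response was fitted on its own 6 libraries, and the genotypes on all 12. A positive value is higher in pent1, or with ABA. SEs are those implied by the F statistic. The fits were tested on simulated data. CPM and L use library totals as the rule for the members does. Alternatives were RLE factors, library size alone, DESeq2 1.42.0, other filters, the replicate number as a block, each library left out, and other settings of the rule.

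The members and lists were chosen with earlier results of these data known. No table paired IDs with names, so pathway lists were not used. Named genes were the 6 most abundant members and, at a mean of at least 1 CPM, the 4 lowest in WT difference, the 4 highest in pent1 difference, up to 4 in each direction by averaged genotype difference with an adjusted p under 0.05 and separate genotypes, the 2 nearest 0, and those at each limit. Others are marked as added.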

Additional observations from a re-analysis of the deposited data

Results flagged for a closer look

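For 21 of the 76 members tested, the ABA responses of pent1 and WT differed by the quasi-likelihood test of edgeR with Benjamini-Hochberg adjustment. All 21 were positive, against 1.20% of tested genes (3.37% in either direction). The rule for the members had used both parts of this contrast and sets its sign in L. Nothing is therefore read from the count or from the values. Of the genes named above, the log2 difference (pent1 minus WT) was 1.03 for NbL09g17320, 1.84 for NbL09g07210, 1.59 for NbL14g03050, 1.28 for NbL12g20860, 1.06 for NbL13g21980 and 1.04 for NbL06g13170. It was 1.41 for NbL11g17510, 0.90 for NbL13g20240, 1.35 for NbL11g22430, 2.16 for NbL04g20000, 0.84 for NbL10g15150 and 0.73 for NbL02g21830. The calls of the last 6 were lost without 1 library in 2, 5, 6, 7, 8 and 10 of the 12 choices.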

How the results depend on the processing

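The size of the group depended on the settings of the rule. It was 260 genes with a pseudocount of 0.1, of which 60 were members, and 2 with limits of -1.5 and -0.25, against 77. When 1 library was left out it was 60 to 108, with 51 to 73 of the members kept. TMM-scaled library sizes gave 106 genes, of which 76 were members. The number of members lower in pent1 averaged over treatments was 19, and 12 with a mean of at least 1 CPM, beside 19.8% and 20.2% of tested genes. It was 13 to 22 without 1 library, beside 17.4% to 21.0% of tested genes. The number higher was 11 to 15, beside 19.9% to 24.1%. For the difference of responses, all genes called were 1145, 1907 by DESeq2, 1747 with the replicate number as a block and 355 to 5334 without 1 library, and members called were 10 to 41. In pent1, members called lower were 0, 1 with library size alone and 0 to 1 without 1 library, where all genes called were 2345 to 6011. Under mock, members called higher in pent1 were 0, 1 with the block and 0 to 1 without 1 library, and under ABA those lower were 3 to 6.

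Same-numbered libraries did not deviate together throughout, with correlations of -0.0590 to 0.206 over 18 pairs, 4 of them above 0.1, and 7 of 12 libraries correlated best with their own number. With the block, the members called in the averaged comparison were 11 higher and 21 lower. No result reversed its sign past the threshold, and for named genes 106 calls were lost and 39 gained over 1936 repeats. Counts limit members under 1 CPM.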

Other observations

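The 77 members carried 19 of the 20 ID prefixes in the files. NbL13 held 10 members (13.0% of members, 6.18% of genes with counts) and NbL09 held 9 (11.7% and 5.20%). A single pair of members had neighbouring IDs, NbL02g14500 and NbL02g14510. NbL02g14500 stood at 9.25, 8.86 and 5.68 CPM in the pent1 ABA libraries, 13.5, 11.2 and 9.20 CPM in pent1 mock, 5.81, 6.61 and 5.71 CPM in WT ABA and 12.3, 15.1 and 11.7 CPM in WT mock. NbL02g14510 stood at 0.305, 0.305 and 0.103 CPM in the pent1 ABA libraries, 0.357, 0.258 and 0.460 CPM in pent1 mock, 0.438, 0.320 and 0.165 CPM in WT ABA and 1.21, 1.18 and 0.962 CPM in WT mock. The sources used here do not say what the prefixes stand for.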
